A study of Mus musculus with 24 samples.

Results

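The genes described here make sterols and fatty acids. They are 34 genes chosen by their known roles, of 35727 genes in the count table: enzymes from acetyl-CoA to cholesterol, enzymes that make, lengthen and desaturate fatty acids, and the proteins that switch these enzymes on. A gene entered with 10 or more counts in at least 3 libraries. All 34 met this, each with at least that many counts in 24 of 24 libraries, and all 34 were among the 14804 genes tested.

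Messenger RNA was sequenced from mouse heart cells kept in EGM2, a medium made for endothelial cells. The 4 conditions were control, whose cell type is given as fibroblast, and Erg, Sox17 and SEG, whose cell type is given as iEC. Each was harvested at day 3 and at day 7, with 3 libraries a group and 24 libraries in all. The study asked how far the cells took on an endothelial identity. Erg and Sox17 are transcription factors of endothelium. SEG is not spelled out in the labels. The sources used here do not give strain, age, sex, vector, or whether control cells carried an empty vector. The labels tie no library to its own culture or animal. The p-values therefore measure spread among 3 libraries a group that may be technical.

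Cholesterol synthesis starts with acetyl-CoA, which is turned into mevalonate, then into isoprenoid units, squalene and lanosterol, and through a chain of reductions and demethylations into cholesterol. Fatty acid synthesis uses the same acetyl-CoA, with NADPH as reductant, and elongases and desaturases then set chain length and unsaturation. Both branches are driven by SREBP transcription factors: when membranes are low in sterol, the escort protein SCAP carries the SREBP precursor out of the endoplasmic reticulum to be cleaved, and when sterol is plentiful INSIG proteins hold the pair back. In fibroblasts and endothelial cells these pathways supply membrane lipids and are most active in growing cells.

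The factors named in the labels were found where the labels place them. Sox17 had 0 counts in the 6 control libraries, and its mean was 1606 ± 53.0 CPM (SD, n = 3; CPM is a count relative to the TMM-scaled library size) with Sox17 at day 3 and 1008 ± 49.9 CPM with SEG. Erg averaged 7087 ± 46.9 CPM with Erg at day 3 and 1268 ± 13.7 CPM with SEG. Total counts ran from 18794422 to 44586227 a library. At day 7 the first replicates of Sox17 and of SEG stood apart from their groups. Ribosomal protein genes held 7.5% of counts in that Sox17 library and 5.205% in that SEG library, against 3.041% to 4.751% in the remaining 22. Both enter the fits, and values without them are given for many, though not all, results that rest on them. That Sox17 library also enters the estimate of spread that all groups share. Without it, some changes in other groups passed the test that did not pass with it. The summed level of 9 endothelial markers was 19.2 to 21.3 CPM in control at day 3, 193 to 200.4 with Erg, 525 to 626 with Sox17 and 1439 to 1585 with SEG. Cldn5, a defining tight junction gene of endothelium, was at 0 in 15 libraries, among them libraries labelled iEC. The summed level of 9 fibroblast markers in control was 29605 to 32295 CPM at day 3 and 22809 to 24331 CPM at day 7.

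Most genes of sterol and fatty acid synthesis were lower than control with Erg, Sox17 and SEG, and most were lower at day 7 than at day 3 in all 4 conditions. The summed level of the 34 genes was 11325 to 11634 CPM in control libraries at day 3. It was 7807 to 7942 CPM with Erg, 8500.1 to 8979 with Sox17 and 8636 to 9008 with SEG. At day 7 the sum was 6436 to 7424 CPM in control, 2660.0 to 2744 with Erg, 4538 to 5321 with Sox17 and 3310.2 to 3841 with SEG. No factor library reached the lowest control library of its day, and the Erg libraries at day 7 were the lowest of all. These are bulk libraries, so fewer cells of a type and less RNA per cell cannot be told apart.

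Calls are adjusted p under 0.05 in edgeR's quasi-likelihood test with Benjamini-Hochberg adjustment over the 14804 genes, in which all groups share an estimate of the spread. The 3 comparisons of a day share their control libraries, so their counts are not independent. At day 3, 28 of 34 genes fell and 3 rose with Erg, where 23.5% of all tested genes fell and 22.6% rose. With Sox17 at day 3, 18 fell and 2 rose, against 19.6% and 20.8% of all genes. With SEG at day 3, 22 fell and 2 rose, against 20.2% and 20%. At day 7, 31 fell and 1 rose with Erg, against 24.8% and 23.7% of all genes. Sox17 at day 7 had 22 lower and 4 higher, against 25% and 29.5%. SEG at day 7 had 29 lower and 2 higher, against 21.8% and 22.5%. In each of the 6 comparisons the share of these genes that fell was above the share of all genes that fell.

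The median log2 change of the 34 genes at day 3 was −0.62 with Erg, −0.34 with Sox17 and −0.50 with SEG. At day 7 the median was −1.64, −0.51 and −1.04, while the median of all tested genes lay between −0.02 and 0.05 over the 6 comparisons. With Erg at day 7 all 3 libraries lay below all 3 control libraries for 32 of 34 genes, against 35.7% of all tested genes. With Sox17 at day 7 this held for 22 genes, against 27.2%. Without the libraries that stood apart, 26 genes fell and 4 rose with Sox17 at day 7, 25 fell and 4 rose with Sox17 at day 3, and 27 fell and 3 rose with SEG at day 3. Without replicate 3 of control at day 7, 2 rose with Sox17 at day 7. In fits of only the groups compared, 4 rose with Sox17 at day 3 and 1 at day 7. Of all genes tested in those fits, 4151 of 13251 and 2191 of 13691 rose.

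Over the 6 comparisons with control, 13 genes fell in every one: Hmgcs1, Idi1, Cyp51, Nsdhl, Hsd17b7, Sc5d, Dhcr7, Srebf1, Acly, Acss2, Acaca, Fasn and Fads1. They span the mevalonate, sterol, fatty acid and SREBP groups. Of all 14804 tested genes, 629 fell in every one, or 4.25%, and the comparisons of a day share their control libraries, so neither count is 6 independent observations. Scap and Pmvk rose at least once and never fell. Sqle, Tm7sf2, Me1, Elovl5 and Fads2 were called in both directions, and no gene of the 34 was without a call.

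**Figure D1:**
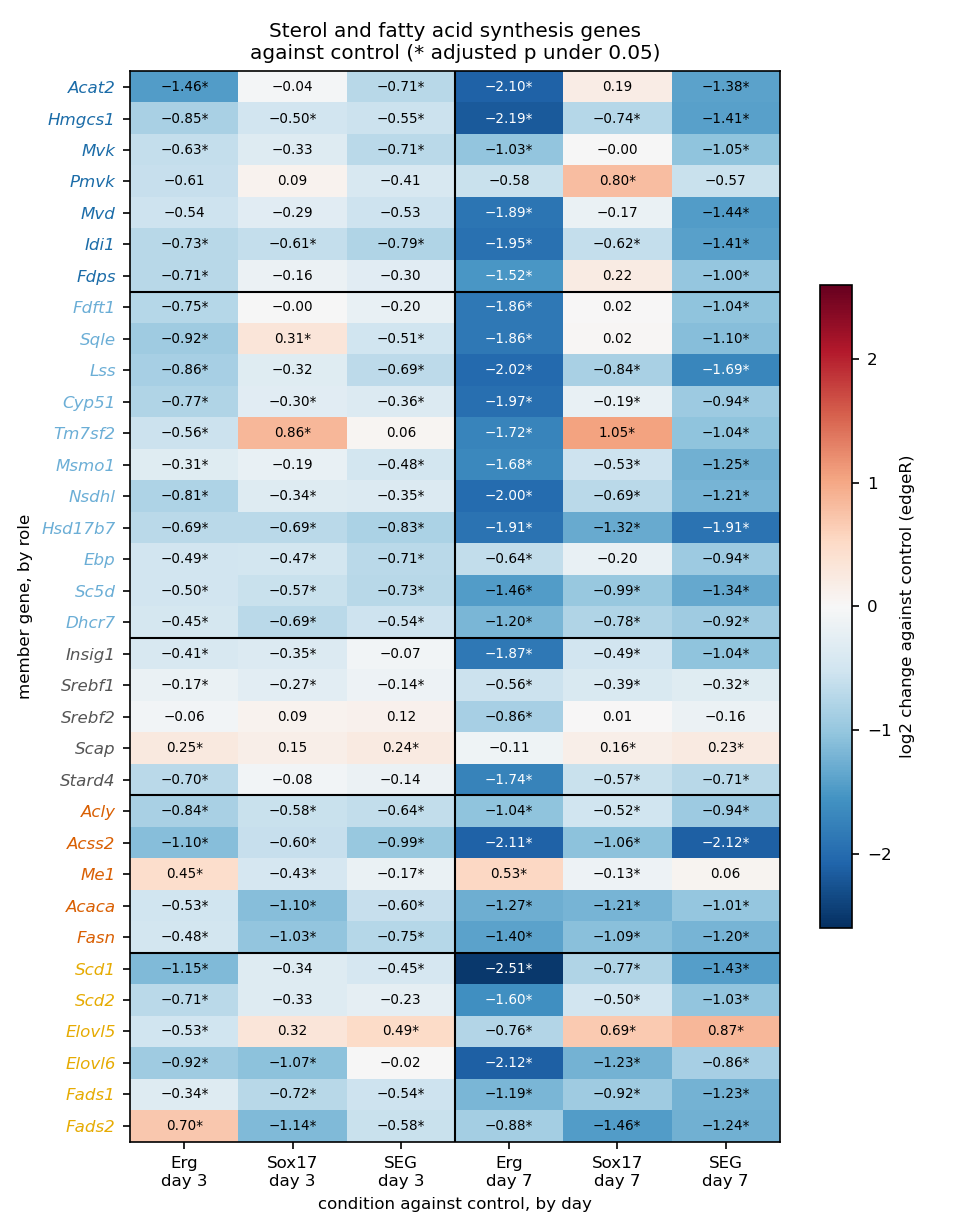
Log2 change of the 34 genes (rows, grouped by role) against control of the same day for Erg, Sox17 and SEG (columns), with marks on calls by edgeR's quasi-likelihood test. The Erg column at day 7 has the lowest median, and Scap, Me1, Elovl5, Pmvk, Sqle, Tm7sf2 and Fads2 hold the called rises.

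Promoter sequence is shown for genes of each role, because the promoters of this pathway are known for sterol regulatory elements, which bind SREBP, and for CCAAT boxes, which bind the SREBP partner NF-Y. For each role, up to 2 genes with the largest fall with Erg at day 7 were taken among those with CCAAT before the start. The stretches were thus picked by motif and by change, and are no sample of the 34 genes. Idi1 and Acss2 were also picked and are not printed. RefSeq promoter windows on GRCm38.p6, from 250 bases before to 50 after the start, were matched for 27 of 34 genes. On either strand, CCAAT was present for 22 of 27 genes, or 81.5%, against 41.1% of 27025 genes with a window. Capitals in the stretches below mark CCAAT, which reads ATTGG on the strand printed, and each stretch ends before the RefSeq start, which can differ from the gene start in the annotation used for the positions of genes.
Hmgcs1: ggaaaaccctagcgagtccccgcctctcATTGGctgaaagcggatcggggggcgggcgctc
Lss: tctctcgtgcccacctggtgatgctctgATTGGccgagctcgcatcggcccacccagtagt
Nsdhl: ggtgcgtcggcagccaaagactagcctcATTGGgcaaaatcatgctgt
Insig1: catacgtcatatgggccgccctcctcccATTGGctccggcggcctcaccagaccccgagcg
Srebf2: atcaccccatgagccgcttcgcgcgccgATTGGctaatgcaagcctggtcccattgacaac
Fasn: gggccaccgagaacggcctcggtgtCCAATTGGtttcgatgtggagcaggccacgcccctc
Elovl5: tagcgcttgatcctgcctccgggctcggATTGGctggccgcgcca
The stretch of Hmgcs1 lies at chr13:119690278-119690338, plus strand and that of Lss at chr10:76531515-76531575, plus strand. Nsdhl is read from chrX:72918473-72918520, plus strand, Insig1 from chr5:28071168-28071228, plus strand, and Srebf2 from chr15:82147106-82147166, plus strand. Fasn is read from chr11:120824574-120824634, minus strand and Elovl5 from chr9:77917320-77917364, plus strand. In Fasn, CCAAT occurs on both strands in overlapping letters. Hmgcs1, Nsdhl and Fasn fell in all 6 comparisons with control, while Srebf2 fell in 1 and Elovl5 fell in 2 and rose in 3.

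Of 44 CCAAT matches in the windows of these genes, 40 ended before the start, 27 of them within the 100 bases before it. There were 2 or more in 1 window for 11 genes. Acat2, Scap, Acaca, Elovl6 and Fads2 had a window without CCAAT. The sterol regulatory element was searched in 1 form, TCACNCCAC with any base at N, so other forms of it were not counted. These letters occurred for 1 of 27 genes, or 3.7%, against 1.44% of all genes. That gene was Hmgcs1, shown with these letters in capitals, at chr13:119690190-119690246, plus strand.
Hmgcs1: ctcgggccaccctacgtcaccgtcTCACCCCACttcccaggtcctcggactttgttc
The E-box CACGTG was present for 6 genes, or 22.2%, against 8.09%. CCGGAAG, a core of the sites of ETS factors such as ERG, was present for 3 genes, or 11.1%, against 9.93%, and ACAATG, a core of SOX sites, for 2, or 7.41%, against 14.3%. No match overlapped a match of another motif. A match describes letters in a window, not a site.

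**Figure D2:**
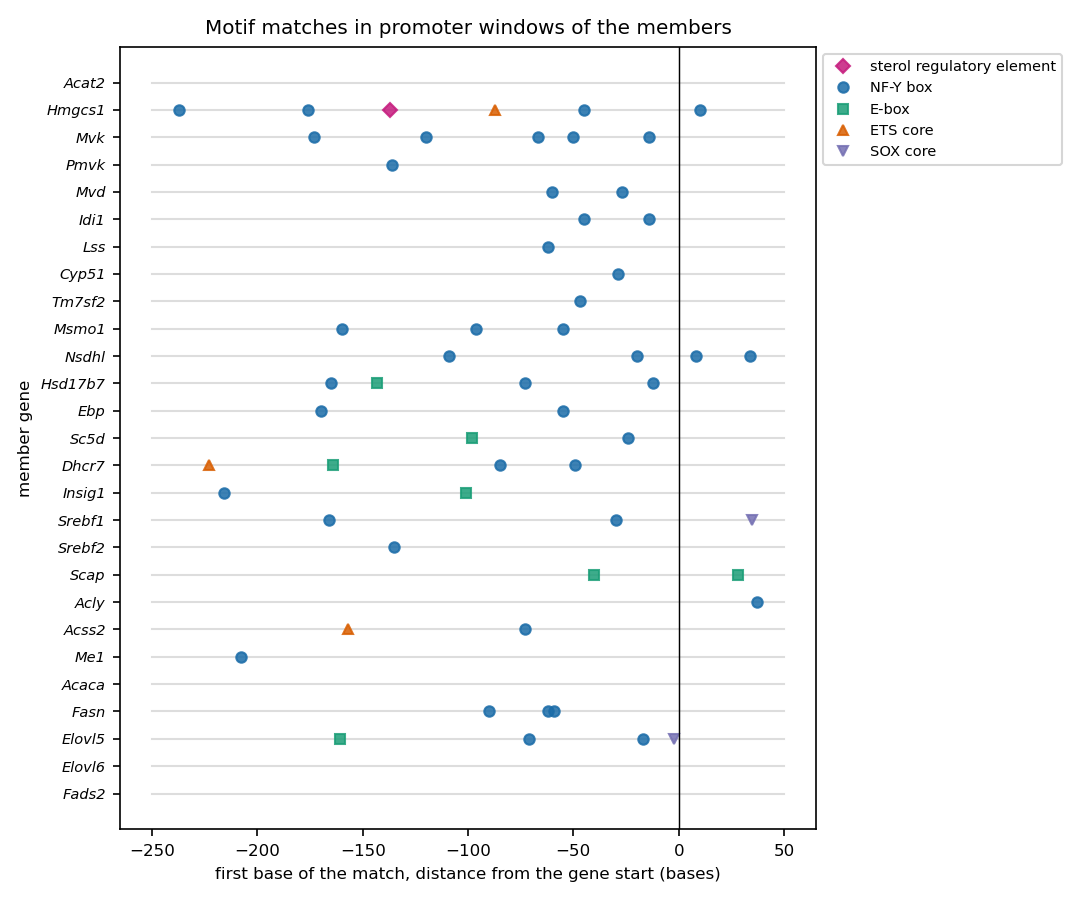
Position of each motif match (bases from the RefSeq start, x axis) in the promoter windows of the 27 genes (y axis). CCAAT matches, present for 22 of 27 genes, lie mostly before the start, and 27 of 44 are within the 100 bases before it.

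Among the 5 genes of the SREBP system, Insig1 and Stard4, both themselves SREBP targets, had larger log2 changes with Erg at day 7 than the genes for the factors and their escort. Of the 5, 3 fell and 1 rose with Erg at day 3, and 4 fell and 0 rose at day 7. With Sox17, 2 fell at day 3, and 3 fell and 1 rose at day 7. With SEG, 1 fell and 1 rose at day 3, and 3 fell and 1 rose at day 7.

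Srebf2 (ENSMUSG00000022463, chromosome 15, 82147181 to 82205379, plus strand) encodes SREBP-2, the main driver of cholesterol synthesis genes. Srebf2 at day 3 stood at 333, 336 and 351 CPM in control, at 333, 329 and 314 with Erg, at 352, 360.2 and 369.9 with Sox17 and at 372, 365 and 369 with SEG. Srebf2 at day 7 stood at 279, 277 and 259 CPM in control, at 154, 151 and 144 with Erg, at 231, 279.8 and 307 with Sox17 and at 224, 247 and 257 with SEG. At day 7 the 3 Erg libraries lay far below control, Sox17 overlapped it, and SEG lay just below it. The log2 change with Erg was −0.06 ± 0.08 (SE) at day 3, adjusted p = 0.562, and −0.86 ± 0.08 at day 7, adjusted p = 3.32e-08. With Sox17 at day 7 no change was detected (0.01, 95% interval −0.16 to 0.17, adjusted p = 0.95), nor with SEG at day 7 (−0.16, 95% interval −0.33 to 0.01, adjusted p = 0.112). Without the 2 libraries that stood apart, Srebf2 with Sox17 at day 7 was called higher, at 0.15, adjusted p = 0.0161. Without replicate 1 of Sox17 at day 7 alone, Srebf2 with SEG at day 7 was called lower, at −0.16, adjusted p = 0.0149.

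Srebf1 (ENSMUSG00000020538, chromosome 11, 60199089 to 60222581, minus strand) encodes SREBP-1, which favours fatty acid synthesis genes. Srebf1 at day 3 stood at 202, 205 and 204 CPM in control, at 177, 183 and 180.4 with Erg, at 166, 169 and 169.9 with Sox17 and at 179, 192 and 183 with SEG. Srebf1 at day 7 stood at 171, 177 and 182 CPM in control, at 123, 119 and 117 with Erg, at 137, 131 and 136 with Sox17 and at 149, 135 and 139 with SEG. All factor libraries lay below all control libraries of their day, by small margins at day 3. Srebf1 fell with Erg by 0.17 at day 3 (adjusted p = 0.0111) and by 0.56 at day 7 (adjusted p = 4.29e-08). It fell with Sox17 by 0.27 and 0.39 and with SEG by 0.14 and 0.32. The Srebf1 call with SEG at day 3 was lost on leaving out any of 20 libraries (log2 change −0.14 to −0.12), and that with Erg at day 3 on leaving out replicate 1 of Erg (−0.15). The table does not separate the transcript forms of Srebf1.

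Scap (ENSMUSG00000032485, chromosome 9, 110333288 to 110384950, plus strand, 785 exonic bases shared with 5830462I19Rik) encodes the escort of SREBP. It rose in 4 of 6 comparisons. Scap at day 3 stood at 109.9, 117 and 121 CPM in control, at 139, 143 and 132 with Erg, at 123, 133 and 129.6 with Sox17 and at 136, 138 and 136 with SEG. Scap at day 7 stood at 131, 138 and 128 CPM in control, at 132, 112 and 123 with Erg, at 139, 153 and 151 with Sox17 and at 155, 155 and 157 with SEG. Factor libraries lay above control at day 3, and at day 7 those of Sox17 and SEG did. Scap rose with Erg at day 3 (0.25 ± 0.07, adjusted p = 0.00367), and with SEG at day 3 (0.24 ± 0.07, adjusted p = 0.00695) and day 7 (0.23 ± 0.07, adjusted p = 0.00661). With Sox17 it rose at day 7 (0.16 ± 0.07, adjusted p = 0.0488), a call lost on leaving out any of 16 libraries (log2 change 0.13 to 0.16). With Erg at day 7 it was not called (−0.11, 95% interval −0.25 to 0.03, adjusted p = 0.174).

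Insig1 (ENSMUSG00000045294, chromosome 5, 28071363 to 28078662, plus strand) encodes the protein that retains SCAP. Insig1 at day 3 stood at 599.8, 579 and 614 CPM in control, at 445, 451 and 451 with Erg, at 496, 466 and 443 with Sox17 and at 575, 547 and 582 with SEG. Insig1 at day 7 stood at 351, 344 and 328 CPM in control, at 90.2, 93 and 97.1 with Erg, at 205, 255 and 266 with Sox17 and at 150.5, 171 and 175 with SEG. Only SEG at day 3 overlapped control. Insig1 fell with Erg by 0.41 at day 3 (adjusted p = 0.000371) and by 1.87 at day 7 (adjusted p = 1.22e-12). It fell with Sox17 by 0.35 and 0.49, and with SEG by 1.04 at day 7 (adjusted p = 2.43e-09). SEG at day 3 was not called (−0.07, 95% interval −0.25 to 0.10, adjusted p = 0.54).

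Stard4 encodes a carrier that moves sterol between membranes. Stard4 at day 3 stood at 115, 110.4 and 113 CPM in control, at 68.1, 73.5 and 67.2 with Erg, at 118, 108 and 94.5 with Sox17 and at 106, 97.6 and 103 with SEG. Stard4 at day 7 stood at 82.8, 77.1 and 66.1 CPM in control, at 21.1, 27.2 and 19.7 with Erg, at 31.9, 58.8 and 61.8 with Sox17 and at 34.6, 49.5 and 53.7 with SEG. At day 3 the Sox17 libraries overlapped control and those of SEG lay just under it, and at day 7 all factor libraries lay below it. Stard4 fell with Erg by 0.70 at day 3 (adjusted p = 0.0051) and by 1.74 at day 7 (adjusted p = 4.62e-07). It fell with SEG at day 7 (−0.71 ± 0.19, adjusted p = 0.00466) and with Sox17 at day 7 (−0.57 ± 0.19, adjusted p = 0.0164). The Sox17 call at day 7 was lost without replicate 1 of Sox17 (log2 change −0.32) or without replicate 1 of control (−0.50).

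Genes of the mevalonate steps had a median log2 change of −1.89 with Erg, −1.38 with SEG and −0.00 with Sox17 at day 7. Of 7, 5 fell with Erg at day 3 and 6 at day 7, 4 and 6 with SEG, and 2 and 2 with Sox17. Pmvk was the gene that rose, with Sox17 at day 7. Their summed level at day 7 was 819 to 1005 CPM in control, 257 to 287 with Erg, 674 to 1077 with Sox17 and 377 to 415 with SEG. The upper end of the Sox17 range is its replicate 1. The Sox17 median rests on that library too: it is the value of Mvk, which without replicate 1 fell by 0.49 (adjusted p = 0.000581). As log2 ratios to the control mean, Mvk, Mvd and Fdps stood at 0.65, 0.58 and 0.92 in replicate 1. In replicates 2 and 3 these genes were below control. Hmgcs1 and Idi1 were below control in all Sox17 libraries, Pmvk was above it in all, and Acat2 was above it in replicates 1 and 3.

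Acat2 (ENSMUSG00000023832, chromosome 17, 12942890 to 12960747, minus strand) encodes the cytosolic thiolase that joins acetyl-CoA units. Acat2 at day 3 stood at 174, 185 and 185 CPM in control, at 65.9, 66.2 and 65.7 with Erg, at 167, 177 and 184 with Sox17 and at 111, 114 and 106 with SEG. Acat2 at day 7 stood at 90.9, 80.2 and 79.1 CPM in control, at 18.9, 19.6 and 19.6 with Erg, at 123, 78 and 84.9 with Sox17 and at 34.1, 31.1 and 30.7 with SEG. Erg and SEG libraries lay below control on both days, while those of Sox17 overlapped it on both. Acat2 fell with Erg by 1.46 at day 3 (adjusted p = 3.04e-09), the largest fall of the 34 in that comparison, and by 2.10 at day 7 (adjusted p = 2.33e-11). With SEG it fell by 0.71 and 1.38. With Sox17 it was not called at day 3 (−0.04, 95% interval −0.28 to 0.20, adjusted p = 0.815) or at day 7 (0.19, 95% interval −0.04 to 0.43, adjusted p = 0.156). Acat3, a near copy that could take reads of Acat2, had group means of 0.256 to 7.44 CPM.

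Hmgcs1 (ENSMUSG00000093930, chromosome 13, 119690379 to 119708260, plus strand, 557 exonic bases shared with Gm48342) encodes HMG-CoA synthase. Hmgcs1 at day 3 stood at 413, 436 and 432 CPM in control, at 236, 231 and 243 with Erg, at 308, 306 and 289.6 with Sox17 and at 289, 289 and 297 with SEG. Hmgcs1 at day 7 stood at 281, 271 and 225 CPM in control, at 49.9, 64.9 and 55.8 with Erg, at 121, 166 and 179 with Sox17 and at 85.3, 105 and 103 with SEG. Every factor library lay below every control library of its day. The log2 change at day 3 was −0.85 ± 0.12 with Erg, −0.50 ± 0.12 with Sox17 and −0.55 ± 0.12 with SEG. At day 7 it was −2.19 ± 0.13 with Erg (adjusted p = 2.95e-11), −0.74 ± 0.12 with Sox17 (adjusted p = 3.66e-05) and −1.41 ± 0.12 with SEG (adjusted p = 9.41e-09).

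Idi1 (ENSMUSG00000058258, chromosome 13, 8885501 to 8892451, plus strand, 323 exonic bases shared with Gm48574), the isomerase of isoprenoid units, was lowest with Erg at day 7, as Hmgcs1 was. Idi1 at day 3 stood at 304, 313 and 309 CPM in control, at 188, 186 and 186 with Erg, at 200.5, 204 and 202 with Sox17 and at 176, 182 and 179 with SEG. Idi1 at day 7 stood at 180.4, 168 and 149 CPM in control, at 42, 45.6 and 41 with Erg, at 82, 118 and 123 with Sox17 and at 56.7, 64.2 and 66.3 with SEG. No factor library overlapped control. Idi1 fell at day 3 by 0.73 with Erg, 0.61 with Sox17 and 0.79 with SEG, and at day 7 by 1.95, 0.62 and 1.41. The largest adjusted p of the 6 was 0.000108.

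Mvd (ENSMUSG00000006517, chromosome 8, 122433601 to 122443422, minus strand), the decarboxylase that makes the isoprenoid unit, was split among the Sox17 libraries at day 7. Mvd at day 3 stood at 113, 125 and 123 CPM in control, at 86.9, 82.5 and 78.4 with Erg, at 95.2, 97.9 and 102 with Sox17 and at 79.5, 86.4 and 83.7 with SEG. Mvd at day 7 stood at 83, 80.3 and 61.3 CPM in control, at 18.2, 19.96 and 22.3 with Erg, at 112, 42.8 and 45.2 with Sox17 and at 32.4, 26.5 and 23.7 with SEG. The other two Sox17 libraries at day 7 lay below control and replicate 1 lay above it. Mvd fell at day 7 with Erg (−1.89 ± 0.25, adjusted p = 3.53e-06) and SEG (−1.44 ± 0.25, adjusted p = 6.62e-05). With Sox17 at day 7 it was not called (−0.17, 95% interval −0.67 to 0.34, adjusted p = 0.574), and without that replicate it fell by 0.77. At day 3 Mvd was not called with Erg (−0.54, 95% interval −1.05 to −0.04, adjusted p = 0.0735), Sox17 (−0.29, 95% interval −0.79 to 0.21, adjusted p = 0.379) or SEG (−0.53, 95% interval −1.03 to −0.03, adjusted p = 0.0885), although no library overlapped control. Without replicate 1 of Sox17 at day 7, Mvd at day 3 was called lower with each factor. The values were −0.29 with Sox17 (adjusted p = 0.0216) and −0.53 with SEG (adjusted p = 0.000178). The Erg call was also gained without replicate 2 of Sox17 at day 7 (−0.54 to −0.52 over both).

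The kinases Mvk and Pmvk and the farnesyl diphosphate synthase Fdps complete the steps. Mvk fell with Erg by 0.63 at day 3 and 1.03 at day 7, and with SEG by 0.71 and 1.05. The Mvk call with Erg at day 3 was lost without replicate 2 of Erg or replicate 3 of control (log2 change −0.61 to −0.58). Pmvk with Sox17 at day 7 stood at 68.7, 22.9 and 23.5 CPM, against 23.5, 22.5 and 20.2 CPM in control. Its call there, 0.80 ± 0.27, adjusted p = 0.0187, rests on replicate 1: without it the change was 0.07, and the call was also lost without replicate 3 of control (0.74). Pmvk with Erg was not called at day 3 (−0.61, 95% interval −1.18 to −0.03, adjusted p = 0.0792) or day 7 (−0.58, 95% interval −1.17 to 0.00, adjusted p = 0.0938). Without replicate 1 of Sox17 at day 7 it was called lower with Erg on both days (adjusted p = 3e-05 and 8.7e-05). So was Pmvk with SEG at day 3 (−0.41) and day 7 (−0.58). Fdps fell with Erg at day 3 (−0.71 ± 0.22, adjusted p = 0.0123) and day 7 (−1.52 ± 0.23, adjusted p = 1.4e-05), and with SEG at day 7 (−0.996 ± 0.22, adjusted p = 0.00104). Of its 1453 exonic bases, 1124 are shared with Gm43738 on the same strand, and counts of the pair cannot be told apart.

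The 11 genes from squalene to cholesterol all fell with Erg, at day 3 and at day 7. With SEG, 9 fell at day 3 and 11 at day 7. With Sox17, 6 fell and 2 rose at day 3, and 7 fell and 1 rose at day 7. Median log2 changes at day 7 were −1.86 with Erg, −1.10 with SEG and −0.53 with Sox17. The summed level at day 7 was 1126 to 1361 CPM in control, 359 to 388 with Erg, 889.5 to 959 with Sox17 and 513 to 555 with SEG, and the 4 ranges did not overlap.

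Lss (ENSMUSG00000033105, chromosome 10, 76531588 to 76557138, plus strand, 381 exonic bases shared with 4930483K19Rik) encodes lanosterol synthase, which closes the sterol rings. Lss at day 3 stood at 210.1, 213 and 211 CPM in control, at 114, 118 and 116 with Erg, at 162, 174 and 171 with Sox17 and at 131, 129.98 and 133 with SEG. Lss at day 7 stood at 113, 98.1 and 89.4 CPM in control, at 23.5, 27.3 and 23.1 with Erg, at 40.5, 58.7 and 69.1 with Sox17 and at 28.4, 31.9 and 32.9 with SEG. All factor libraries lay below control. Lss fell with Erg by 0.86 at day 3 (adjusted p = 1.58e-05) and 2.02 at day 7 (adjusted p = 2.42e-10), and with SEG by 0.69 (adjusted p = 0.000223) and 1.69 (adjusted p = 1.95e-09). With Sox17 it was not called at day 3 (−0.32, 95% interval −0.59 to −0.06, adjusted p = 0.051) and fell at day 7 (−0.84 ± 0.13, adjusted p = 1.82e-05). The day 3 fall was called without replicate 1 or 3 of Sox17 at day 7 or replicate 1 of control at day 7 (−0.32 to −0.31).

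Hsd17b7 (ENSMUSG00000026675, chromosome 1, 169949535 to 169969241, minus strand), a ketoreductase of the demethylation steps, was among the largest falls with SEG. Hsd17b7 at day 3 stood at 197, 194 and 196 CPM in control, at 124, 122 and 117 with Erg, at 131, 126 and 107 with Sox17 and at 111, 107 and 113 with SEG. Hsd17b7 at day 7 stood at 144, 129 and 114 CPM in control, at 34.3, 39.9 and 28.8 with Erg, at 21.9, 59.7 and 73.6 with Sox17 and at 24.2, 38.6 and 39.96 with SEG. No factor library reached control. At day 7 Hsd17b7 fell by 1.91 with Erg (adjusted p = 1.12e-05), 1.32 with Sox17 (adjusted p = 0.000406) and 1.91 with SEG (adjusted p = 1.03e-05). At day 3 it fell by 0.69, 0.69 and 0.83. The day 3 calls were lost on leaving out any of 6 libraries for Erg (log2 change −0.70 to −0.67), any of 21 for Sox17 (−0.75 to −0.61), and replicate 2 of SEG for SEG (−0.81).

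Sqle (ENSMUSG00000022351, chromosome 15, 59315077 to 59331192, plus strand), squalene epoxidase, and Tm7sf2 (ENSMUSG00000024799, chromosome 19, 6062821 to 6068373, minus strand), a sterol reductase, rose with Sox17. Sqle at day 3 stood at 202, 217 and 216 CPM in control, at 114, 113 and 109 with Erg, at 267, 262 and 259 with Sox17 and at 146, 153 and 147 with SEG. Sqle at day 7 stood at 143, 131 and 117 CPM in control, at 36.2, 35 and 36.3 with Erg, at 120.5, 132 and 145 with Sox17 and at 56.8, 60.9 and 64.6 with SEG. Sox17 libraries were above control at day 3 and overlapped it at day 7, and Erg and SEG libraries were below control on both days. Sqle rose with Sox17 at day 3 (0.31 ± 0.08, adjusted p = 0.00232), was not called at day 7 (0.02, 95% interval −0.13 to 0.18, adjusted p = 0.801), and fell with Erg by 0.92 and 1.86 and with SEG by 0.51 and 1.10. Tm7sf2 at day 3 stood at 41, 45 and 48.6 CPM in control, at 31.4, 31.5 and 28.2 with Erg, at 85.5, 76.8 and 81.9 with Sox17 and at 48.6, 44.9 and 46.3 with SEG. Tm7sf2 at day 7 stood at 30.05, 25.3 and 22.7 CPM in control, at 8.13, 5.43 and 9.9 with Erg, at 78.1, 42.6 and 39.9 with Sox17 and at 15.1, 12.2 and 10.5 with SEG. Every Sox17 library lay above every control library of its day, also without replicate 1. Tm7sf2 rose with Sox17 at day 3 (0.86 ± 0.21, adjusted p = 0.00252) and day 7 (1.05 ± 0.21, adjusted p = 0.000352), and at day 7 by 0.71 without the libraries that stood apart. It fell with Erg at day 7 (−1.72 ± 0.22, adjusted p = 2.82e-06) and SEG at day 7 (−1.04 ± 0.22, adjusted p = 0.000553). With Erg at day 3 it fell by 0.56, a call lost on leaving out any of 5 libraries (log2 change −0.59 to −0.50).

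The other 7 sterol enzymes fell with Erg and SEG at day 7 in every case. Nsdhl, a dehydrogenase of the demethylation steps, fell by 2.001 with Erg, 1.21 with SEG and 0.69 with Sox17 at day 7. Cyp51, the lanosterol demethylase, fell by 1.97 with Erg and 0.94 with SEG, and by 0.19 with Sox17, a call lost on leaving out any of 6 libraries (log2 change −0.19 to −0.12). Fdft1, squalene synthase, fell by 1.86 with Erg and 1.04 with SEG and was not called with Sox17 (0.02, 95% interval −0.28 to 0.31, adjusted p = 0.925). Msmo1, a methylsterol oxidase, fell by 1.68 with Erg, 1.25 with SEG and 0.53 with Sox17. Sc5d, a sterol desaturase, fell by 1.46, 1.34 and 0.99 in the same order. Dhcr7, a late reductase, fell by 1.20, 0.92 and 0.78. Ebp, a sterol isomerase, fell by 0.64 and 0.94 and was not called with Sox17 (−0.20, 95% interval −0.57 to 0.16, adjusted p = 0.336). Its Sox17 libraries stood at 54.2, 27.5 and 30 CPM against 40.2 to 47.2 in control. Without replicate 1 of Sox17 it fell by 0.58 (adjusted p = 6.47e-05). Ebp also fell at day 3 with Erg (−0.49, lost on leaving out any of 5 libraries, −0.49 to −0.48) and Sox17 (−0.47, lost with any of 6, −0.49 to −0.42). Fdft1 shares 774 exonic bases with Ctsb, and Cyp51 shares 166 with Akap9. The sources used here do not give the strand setting of the counting, so such pairs cannot be told apart over those bases.

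Among genes that supply acetyl-CoA and NADPH and build saturated fatty acids, Acly, Acss2, Acaca and Fasn fell in all 6 comparisons and Me1 rose with Erg. Of 5, 4 fell and 1 rose with Erg on each day. All 5 fell with Sox17 on each day, and with SEG 5 fell at day 3 and 4 at day 7. Their summed level at day 3 was 2147 to 2192 CPM in control, 1525 to 1606 with Erg, 1214 to 1257 with Sox17 and 1337 to 1428 with SEG, so that the Sox17 sum was the lowest of that day.

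Acss2 (ENSMUSG00000027605, chromosome 2, 155517948 to 155585724, plus strand, 165 exonic bases shared with neighbours) encodes the synthetase that makes acetyl-CoA from acetate. Acss2 at day 3 stood at 103, 112 and 116 CPM in control, at 55.4, 50.6 and 48.3 with Erg, at 74.6, 70.4 and 74.5 with Sox17 and at 55.9, 57 and 54.5 with SEG. Acss2 at day 7 stood at 69.9, 62.7 and 57.6 CPM in control, at 13.2, 15.4 and 15.3 with Erg, at 28.5, 28.8 and 34 with Sox17 and at 15.2, 14.5 and 14.2 with SEG. At day 7 the Erg and SEG libraries lay close together and far below control, and Sox17 lay between. Acss2 fell at day 3 by 1.10 with Erg (adjusted p = 3.2e-09), 0.60 with Sox17 and 0.99 with SEG. At day 7 it fell by 2.11 (adjusted p = 5.38e-13), 1.06 (adjusted p = 3.76e-09) and 2.12 (adjusted p = 1.77e-13). Acly, which makes acetyl-CoA from citrate, fell at day 7 by 1.04, 0.52 and 0.94 with Erg, Sox17 and SEG.

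Acaca (ENSMUSG00000020532, chromosome 11, 84129672 to 84401651, plus strand) encodes acetyl-CoA carboxylase, which makes malonyl-CoA. Acaca at day 3 stood at 195, 193 and 193 CPM in control, at 134, 137 and 133 with Erg, at 93.6, 93.4 and 83.4 with Sox17 and at 129.7, 117 and 137 with SEG. Acaca at day 7 stood at 141, 145 and 127 CPM in control, at 62.1, 59.6 and 50.04 with Erg, at 46, 63.6 and 68.7 with Sox17 and at 52.8, 74.4 and 77.8 with SEG. At day 3 the Sox17 libraries were the lowest. Acaca fell at day 3 by 1.10 with Sox17 (adjusted p = 1.36e-06), 0.53 with Erg and 0.60 with SEG. At day 7 it fell by 1.21, 1.27 and 1.01 in that order.

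Fasn (ENSMUSG00000025153, chromosome 11, 120805846 to 120824547, minus strand) encodes fatty acid synthase. Fasn at day 3 stood at 1065, 1078 and 1034 CPM in control, at 747, 797 and 728 with Erg, at 522, 529 and 509.6 with Sox17 and at 635, 594 and 665 with SEG. Fasn at day 7 stood at 739.9, 757 and 689.8 CPM in control, at 287, 291 and 251 with Erg, at 282, 361 and 384 with Sox17 and at 273, 333 and 342 with SEG. As with Acaca, Sox17 was lowest at day 3, and at day 7 the 3 factors overlapped. Fasn fell at day 3 by 1.03 with Sox17 (adjusted p = 6.29e-08), 0.48 with Erg and 0.75 with SEG. At day 7 it fell by 1.09, 1.40 and 1.20 (adjusted p = 9.38e-10 for Erg).

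Me1 (ENSMUSG00000032418, chromosome 9, 86581371 to 86695953, minus strand) encodes cytosolic malic enzyme, a source of NADPH. Me1 at day 3 stood at 209, 205 and 201 CPM in control, at 269, 285 and 288 with Erg, at 152, 155 and 151 with Sox17 and at 178, 185 and 185 with SEG. Me1 at day 7 stood at 128, 122 and 119 CPM in control, at 177, 175 and 182 with Erg, at 108, 118 and 112 with Sox17 and at 126, 130.4 and 129 with SEG. Erg libraries lay above control on both days and Sox17 libraries below it. Me1 rose with Erg at day 3 (0.45 ± 0.05, adjusted p = 6.6e-07) and day 7 (0.53 ± 0.05, adjusted p = 7.42e-08), and fell with Sox17 at day 3 (−0.43 ± 0.05, adjusted p = 1.4e-06). The fall with Sox17 at day 7, −0.13, was lost on leaving out any of 23 libraries (log2 change −0.13 to −0.08), and the fall with SEG at day 3, −0.17, without replicate 1 of SEG or replicate 1 of control (−0.15). SEG at day 7 was not called (0.06, 95% interval −0.05 to 0.17, adjusted p = 0.363).

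The elongases and desaturases divided by gene. Of 6, 5 fell and 1 rose with Erg at day 3 and all 6 fell at day 7. With Sox17, 3 fell at day 3, and 5 fell and 1 rose at day 7. With SEG, 3 fell and 1 rose at day 3, and 5 fell and 1 rose at day 7. Per kilobase of exon, Scd2 was the most abundant of the 34 genes in control at day 3, at 418.4 CPM per kilobase, followed by Fdps (301.1), Insig1 (221.6) and Scd1 (188.7), and the lowest was Acaca at 20.37.

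Scd1 (ENSMUSG00000037071, chromosome 19, 44394455 to 44407879, minus strand) and Scd2 (ENSMUSG00000025203, chromosome 19, 44293674 to 44306864, plus strand) encode stearoyl-CoA desaturases, which make monounsaturated fatty acids. Scd1 at day 3 stood at 876, 936 and 924 CPM in control, at 422, 406 and 409 with Erg, at 805, 706 and 647 with Sox17 and at 693, 623 and 693 with SEG. Scd1 at day 7 stood at 490.4, 449 and 391 CPM in control, at 77.2, 81.5 and 75 with Erg, at 181, 284 and 313 with Sox17 and at 127, 174 and 192 with SEG. All factor libraries lay below control, and those of Erg were lowest on both days. Scd1 fell with Erg by 1.15 at day 3 (adjusted p = 6.18e-06) and 2.51 at day 7 (adjusted p = 2.26e-10), the largest fall at day 7 in that comparison. It fell with SEG by 0.45 at day 3, lost on leaving out any of 5 libraries (log2 change −0.47 to −0.40), and by 1.43 at day 7 (adjusted p = 3.25e-07). With Sox17 it was not called at day 3 (−0.34, 95% interval −0.67 to −0.01, adjusted p = 0.0943) and fell at day 7 (−0.77 ± 0.16, adjusted p = 0.000364). Without replicate 1 of Sox17 at day 7, the day 3 fall was called (−0.34, adjusted p = 0.0129). Scd2 at day 3 stood at 2268, 2293 and 2285 CPM in control, at 1414, 1368 and 1408 with Erg, at 1965, 1812 and 1672 with Sox17 and at 1943, 1827 and 2057 with SEG. Scd2 at day 7 stood at 1207, 1172 and 1007 CPM in control, at 384, 387 and 347 with Erg, at 476, 922 and 997 with Sox17 and at 442, 581 and 629.7 with SEG. As with Scd1, all factor libraries lay below control, and those of Erg were lowest on both days. It fell with Erg at day 3 (−0.71 ± 0.18) and day 7 (−1.60 ± 0.18) and with SEG at day 7 (−1.03 ± 0.18). Its fall with Sox17 at day 7, −0.50, was lost without replicate 1 of Sox17 (−0.23) and without replicate 1 or 2 of control (−0.47 to −0.23 over the 3).

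Elovl6 (ENSMUSG00000041220, chromosome 3, 129532355 to 129638495, plus strand) encodes the elongase of saturated and monounsaturated chains. Elovl6 at day 3 stood at 168, 154 and 158 CPM in control, at 87.8, 84.6 and 81.3 with Erg, at 80.4, 78.9 and 69.8 with Sox17 and at 159, 149 and 165 with SEG. Elovl6 at day 7 stood at 80.4, 75.5 and 70.4 CPM in control, at 16.1, 20.1 and 15.8 with Erg, at 23.9, 33.6 and 39 with Sox17 and at 32.8, 46.7 and 45.2 with SEG. SEG overlapped control at day 3, while Erg and Sox17 lay close together and below it. Elovl6 fell at day 3 with Erg (−0.92 ± 0.14, adjusted p = 2.61e-05) and Sox17 (−1.07 ± 0.14, adjusted p = 4.44e-06) and was not called with SEG (−0.02, 95% interval −0.32 to 0.28, adjusted p = 0.939). At day 7 it fell by 2.12 with Erg, 1.23 with Sox17 and 0.86 with SEG (adjusted p = 5.77e-05).

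Elovl5 (ENSMUSG00000032349, chromosome 9, 77917364 to 77984519, plus strand) encodes an elongase of polyunsaturated chains and went up with SEG. Elovl5 at day 3 stood at 140.2, 146 and 145 CPM in control, at 97.8, 99.4 and 102 with Erg, at 197, 173 and 169 with Sox17 and at 206, 194 and 206 with SEG. Elovl5 at day 7 stood at 105, 99.7 and 93.7 CPM in control, at 59.4, 60.2 and 56.3 with Erg, at 111, 181 and 190.5 with Sox17 and at 154, 188 and 203 with SEG. SEG and Sox17 libraries lay above control on both days, and Erg libraries below it. Elovl5 rose with SEG at day 3 (0.49 ± 0.14, adjusted p = 0.00725) and day 7 (0.87 ± 0.14, adjusted p = 3.14e-05), and with Sox17 at day 7 (0.69 ± 0.14, adjusted p = 0.000298). With Sox17 at day 3 it was not called (0.32, 95% interval 0.03 to 0.61, adjusted p = 0.0733), and without the libraries that stood apart it was 0.32, adjusted p = 2.67e-05. It fell with Erg by 0.53 at day 3 and 0.76 at day 7 (adjusted p = 0.00014).

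Fads1 (ENSMUSG00000010663, chromosome 19, 10182888 to 10196877, plus strand) and Fads2 (ENSMUSG00000024665, chromosome 19, 10062765 to 10101746, minus strand) encode the desaturases of polyunsaturated fatty acids and are neighbours on chromosome 19. Fads1 at day 3 stood at 485, 506 and 516 CPM in control, at 399.8, 401 and 393 with Erg, at 309, 299 and 305 with Sox17 and at 349.9, 337 and 352 with SEG. Fads1 at day 7 stood at 467, 448 and 424 CPM in control, at 202, 187 and 199 with Erg, at 229, 239 and 242 with Sox17 and at 176, 192 and 202 with SEG. Fads1 lay below control in every factor library. It fell by 0.34, 0.72 and 0.54 at day 3 with Erg, Sox17 and SEG, and by 1.19, 0.92 and 1.23 at day 7. Fads2 at day 3 stood at 338, 354 and 364 CPM in control, at 589, 570.1 and 562 with Erg, at 159.7, 158 and 160.4 with Sox17 and at 234, 238 and 234 with SEG. Fads2 at day 7 stood at 258, 255 and 225 CPM in control, at 139.8, 126 and 135 with Erg, at 105, 78 and 85.2 with Sox17 and at 105, 99.5 and 107 with SEG. Erg libraries were above control at day 3 and below it at day 7, while Sox17 and SEG libraries were below it on both days. Fads2 rose with Erg at day 3 (0.70 ± 0.08, adjusted p = 9.92e-07) and fell at day 7 (−0.88 ± 0.09, adjusted p = 5.08e-08). It was the largest fall of the 34 with Sox17 at day 3 (−1.14 ± 0.09, adjusted p = 1.05e-09) and at day 7 (−1.46 ± 0.09, adjusted p = 2.07e-11), and fell with SEG by 0.58 and 1.24. The neighbours Fads1 and Fads2 thus had opposite calls with Erg at day 3.

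**Figure D3:**
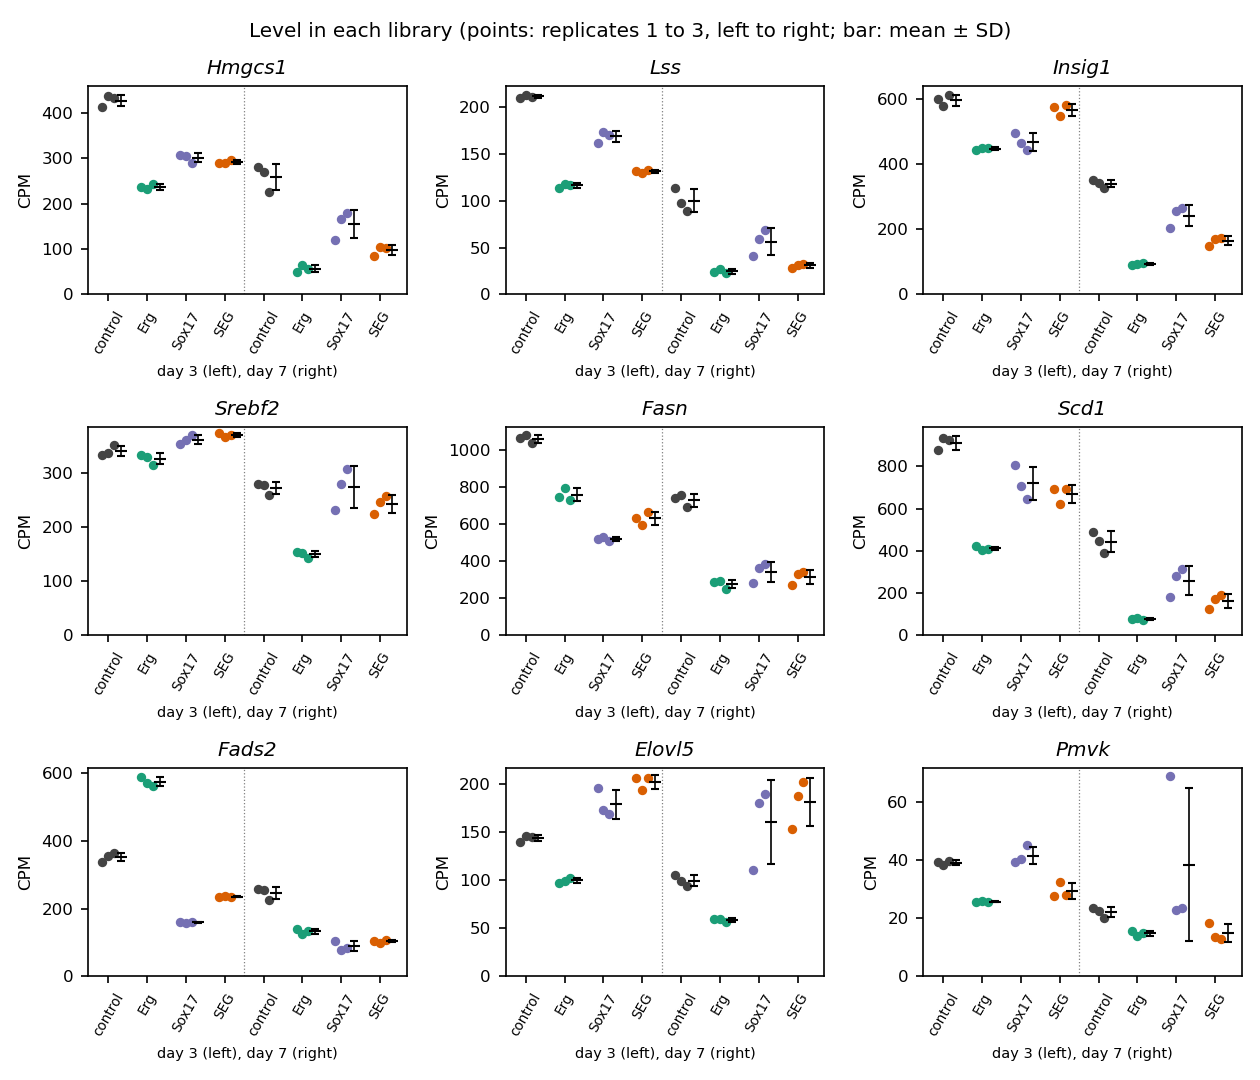
CPM of 9 genes (panels) by condition and day, each point 1 library (replicates 1 to 3) and each bar the mean ± SD. Erg is lowest at day 7 for Hmgcs1, Lss, Insig1, Srebf2 and Scd1, Fads2 with Erg is above control at day 3 and below it at day 7, and Elovl5 is above control with SEG.

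SEG was set against each factor, which shows where the SEG libraries differ from those of Erg and of Sox17 directly. Against Erg at day 3, 13 of 34 genes were higher and 4 lower in SEG, where 25.7% and 25.3% of all tested genes were. At day 7, 20 were higher and 2 lower, against 24.7% and 24.8%. The largest rises at day 3 were Elovl5 (1.02 ± 0.14), Elovl6 (0.90 ± 0.14) and Acat2 (0.74 ± 0.11), and the largest falls Fads2 (−1.28 ± 0.09), Me1 (−0.62 ± 0.05) and Fasn (−0.26). The Fasn call was lost without replicate 2 of Erg or without replicate 1 or 2 of SEG (−0.26 to −0.22). At day 7 the largest rises were Elovl5 (1.63 ± 0.14), Elovl6 (1.27 ± 0.15) and Scd1 (1.08 ± 0.16), and Me1 (−0.47) and Fads2 (−0.36) were the genes that fell. Acss2 did not differ detectably from Erg at day 7 (−0.00, 95% interval −0.19 to 0.19, adjusted p = 0.977), nor did Hsd17b7 (0.00, 95% interval −0.57 to 0.57, adjusted p = 1). Replicate 1 of Sox17 at day 7 enters the shared estimate of the spread. Without it, 7 genes were lower in SEG than in Erg at day 3. In a fit of the SEG and Erg groups alone 8 were, against 4896 of 13551 tested genes.

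Sox17 libraries held more sterol gene RNA than Erg libraries, most clearly at day 7. At day 3, 15 genes were higher and 6 lower in Sox17 than in Erg, against 28.4% and 26.8% of all genes. At day 7, 30 were higher and 2 lower, against 29.1% and 25.9%, with a median log2 difference of 1.12. Tm7sf2 (2.77 ± 0.23), Acat2 (2.30 ± 0.12) and Sqle (1.88 ± 0.08) differed most at day 7, as at day 3 (1.42, 1.42 and 1.23). Fads2 and Me1 were lower in Sox17 on both days, by 1.85 and 0.88 at day 3 and 0.58 and 0.66 at day 7. Acaca was lower at day 3 by 0.58.

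Between SEG and Sox17 at day 3, 7 genes were higher and 6 lower in SEG, not far from the 14% and 14.2% of all genes. Elovl6 (1.05 ± 0.14), Fads2 (0.56) and Acaca (0.50) were higher, and Sqle (−0.82 ± 0.08), Tm7sf2 (−0.80) and Acat2 (−0.67) lower. Without replicate 1 of Sox17 at day 7, 11 were lower at day 3, and without replicate 3 of Sox17 or of SEG at day 3, 4 were higher. In a fit of these groups alone, 13 were lower, against 3317 of 13451 tested genes. At day 7, 3 were higher and 22 lower in SEG, against 18.8% and 21.2%. Tm7sf2 (−2.09 ± 0.22), Acat2 (−1.58 ± 0.12) and Pmvk (−1.38) fell most, and without the libraries that stood apart these were −1.86, −1.40 and −0.83. The rises at day 7 were Elovl6 (0.37), Fads2 (0.22) and Me1 (0.19). Those of Elovl6 and Fads2 were lost on leaving out any of 21 and of 22 libraries (log2 differences 0.20 to 0.41 and 0.12 to 0.25). Same-numbered libraries of these groups deviated together, with replicate 1 apart in both groups. With a replicate block in a fit of these groups 0 genes were higher and 18 lower, so all 3 rises lost their call (Me1 0.18, adjusted p = 0.25). In the fit of these groups without the block, 0 were higher and 10 lower. Of the 13709 genes tested, 1905 were higher and 1976 lower with the block, and 1014 and 1160 without it.

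Within each condition most of the genes were lower at day 7 than at day 3. In control, 30 of 34 fell and 1 rose, against 13.4% and 16.1% of all tested genes, with a median of −0.71. With Erg, 33 fell and none rose (against 14.4% and 15.6%), with a median of −1.70. Of the other conditions, Sox17 had 27 lower and 1 higher (12.9% and 16.6%, median −0.70). In a fit of the Sox17 groups alone, 13 were lower and 0 higher, against 259 and 598 of 13857 tested genes. SEG had 32 lower and 1 higher (12.9% and 14.3%; median −1.31). By an unadjusted p under 0.05, 0 of 34 rose with Erg, and DESeq2 called 0 higher.

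In control the largest falls were Acat2 (−1.12 ± 0.12), Elovl6 (−1.08 ± 0.14) and Lss (−1.08 ± 0.13). With Erg they were Scd1 (−2.40 ± 0.17), Elovl6 (−2.29 ± 0.15) and Insig1 (−2.26 ± 0.09). Lss, Scd1 and Acss2 fell most in both other conditions, by 1.59, 1.47 and 1.27 with Sox17 and by 2.08, 2.03 and 1.93 with SEG. Scap was the single rise, by 0.19 in control, 0.20 with Sox17 and 0.19 with SEG. Its call was lost on leaving out any of 9 libraries in control (0.15 to 0.20), replicate 1 or 3 of day 3 or replicate 2 of day 7 with Sox17 (0.16 to 0.20), and any of 15 with SEG (0.18 to 0.19).

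Whether a factor's effect itself changed between days was tested as an interaction. The Erg effect moved down for 27 of 34 genes and up for none, against 10.4% and 9.34% of all genes. The SEG effect moved down for 20 and up for none, against 5.77% and 6.09%. The Sox17 effect moved down for 2 and up for 1, shares near the 6.66% and 7.61% of all genes. Without replicate 1 of Sox17 at day 7, the Sox17 effect moved down for 4 and up for 3 genes, and the SEG effect up for 2. Without replicate 3 of control or of Sox17 at day 7, the Sox17 effect moved down for 4. In fits of only the groups compared, the Sox17 effect moved down for 0 and up for 0, and the SEG effect up for 1. Of 14021 genes tested in the Sox17 fit, 561 moved down and 568 up. In the SEG fit, 1405 of 13868 moved up. The median change of effect was −0.95 for Erg, −0.64 for SEG and −0.10 for Sox17. At an unadjusted p under 0.05, 0 of 34 moved up for Erg and 1 for SEG, and DESeq2 called 0 and 1 higher. By the unadjusted p the gene that moved up for SEG was Me1 (log2 change of effect 0.23), named after its value was seen.

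Fads2 (−1.59 ± 0.12, adjusted p = 1.81e-08), Insig1 (−1.45 ± 0.12, adjusted p = 3.85e-08) and Scd1 (−1.36 ± 0.22, adjusted p = 0.000184) moved most for Erg. Acss2 (−1.13 ± 0.13, adjusted p = 3.36e-06), Tm7sf2 (−1.10 ± 0.30, adjusted p = 0.0206) and Lss (−1.002 ± 0.18, adjusted p = 0.000853) moved most for SEG, and the call of Tm7sf2 was lost without replicate 3 of SEG at day 7 or replicate 1 of control at either day (−1.04 to −0.98). For Sox17, Me1 moved up (0.30 ± 0.08, adjusted p = 0.0098), and Acss2 (−0.46 ± 0.12, adjusted p = 0.0147) and Msmo1 (−0.34 ± 0.11, adjusted p = 0.0358) moved down. The Acss2 call was lost without replicate 1 of control at day 7 (−0.39) and that of Msmo1 on leaving out any of 11 libraries (−0.36 to −0.27). Srebf2 moved down for Erg (−0.80 ± 0.11, adjusted p = 3.96e-05) and was not called for SEG (−0.28, 95% interval −0.52 to −0.04, adjusted p = 0.134).

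**Figure D4:**
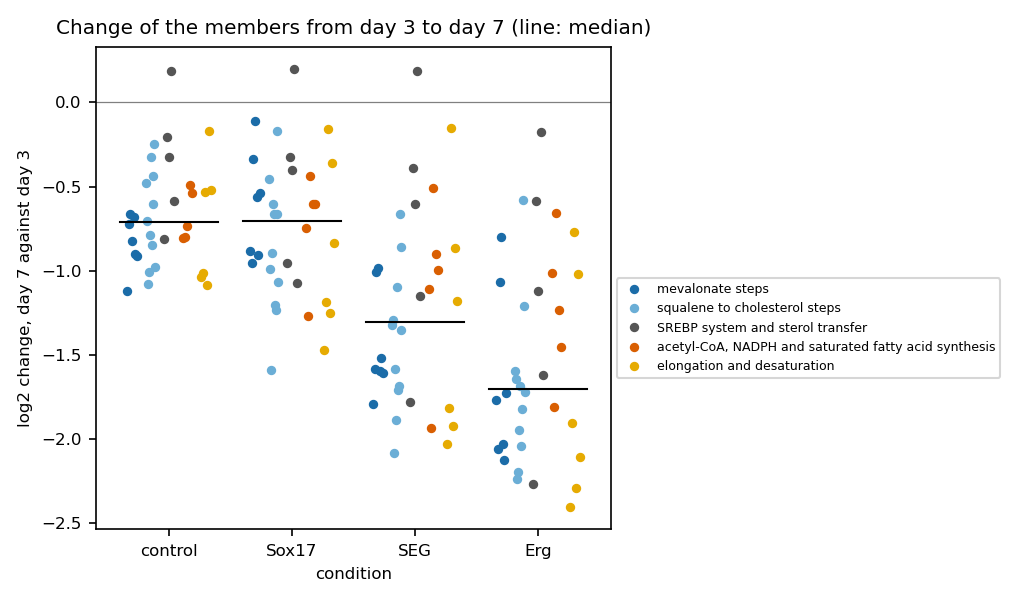
Log2 change from day 3 to day 7 of each of the 34 genes (points) in control, Sox17, SEG and Erg (x axis), with a line at the median. The medians are −0.71, −0.70, −1.31 and −1.70, and Scap is the point above 0 by a call in control, Sox17 and SEG.

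Markers of growth and of other cells moved with these comparisons. The summed level of 14 proliferation genes was 879 to 895 CPM in control at day 3 and 236 to 288 at day 7. With Erg it was 469.97 to 494 and 419 to 429.7, with Sox17 798 to 813 and 585 to 653, and with SEG 711 to 755 and 368 to 383. Of the 14, 12 fell with Erg at day 3, 4 with Sox17 and 7 with SEG, against 23.5%, 19.6% and 20.2% of all genes. In the same order 2, 0 and 1 rose, against 22.6%, 20.8% and 20%. At day 7 10, 14 and 8 rose with Erg, Sox17 and SEG, against 23.7%, 29.5% and 22.5% of all genes, and edgeR called none lower. All 11 macrophage markers rose with Erg at day 7, where their sum was 707 to 718 CPM against 139.6 to 183 in control. With SEG at day 7, 6 of the 11 rose and 1 fell, and the sum was 210.3 to 284 CPM, above every control library. With Sox17 at day 7, 1 rose and the sum was 145 to 238 CPM. Of 9 fibroblast markers, 8 fell with Erg, 8 with Sox17 and 7 with SEG at day 7, against 24.8%, 25% and 21.8% of all genes. Col1a1, a fibrillar collagen, rose with SEG at day 7, from 7776 ± 248 CPM in control to 10668 ± 299.5. Of 7 adipocyte markers Lep was at 0 in 24 libraries, Cidec in 23, Cfd in 22, Adipoq in 14 and Plin1 in 12. Fabp4, which endothelial cells also express, was at 384 ± 17.7 CPM with SEG at day 3 against 37.7 ± 0.911 in control. Pparg, the nuclear receptor that drives fat cell formation, rose with Erg at day 3 (1.12) and day 7 (0.84) and fell with Sox17 on both days (−1.92 and −1.35) and with SEG at day 3 (−1.28). The part of growth and of cell makeup in the synthesis genes was not tested.

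Replicate 1 of Sox17 at day 7 differed from the other two by gene. In it, 7 genes were over 1.5 times both others: Mvk, Pmvk, Mvd, Fdps, Fdft1, Tm7sf2 and Ebp. Another 6 were below both by 1.5 times: Hsd17b7, Sc5d, Stard4, Scd1, Scd2 and Elovl5. The first 7 have exonic lengths of 1453 to 3698 bases (median 1743) and the 6 of 2782 to 5455 (median 4956), where all 34 have a median of 3545. The part of transcript length was not tested. Fdps with Sox17 at day 7 stood at 439, 186 and 185 CPM against 253, 232 and 210.2 CPM in control. Its change was 0.22, 95% interval −0.24 to 0.68, adjusted p = 0.415, and −0.29 without the libraries that stood apart, so its direction rests on that library. Fdft1, at 192, 113 and 112 CPM, likewise went from 0.02 to −0.25. In replicate 1 of SEG at day 7, Hsd17b7 alone was set apart by this measure, below the others.

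**Figure D5:**
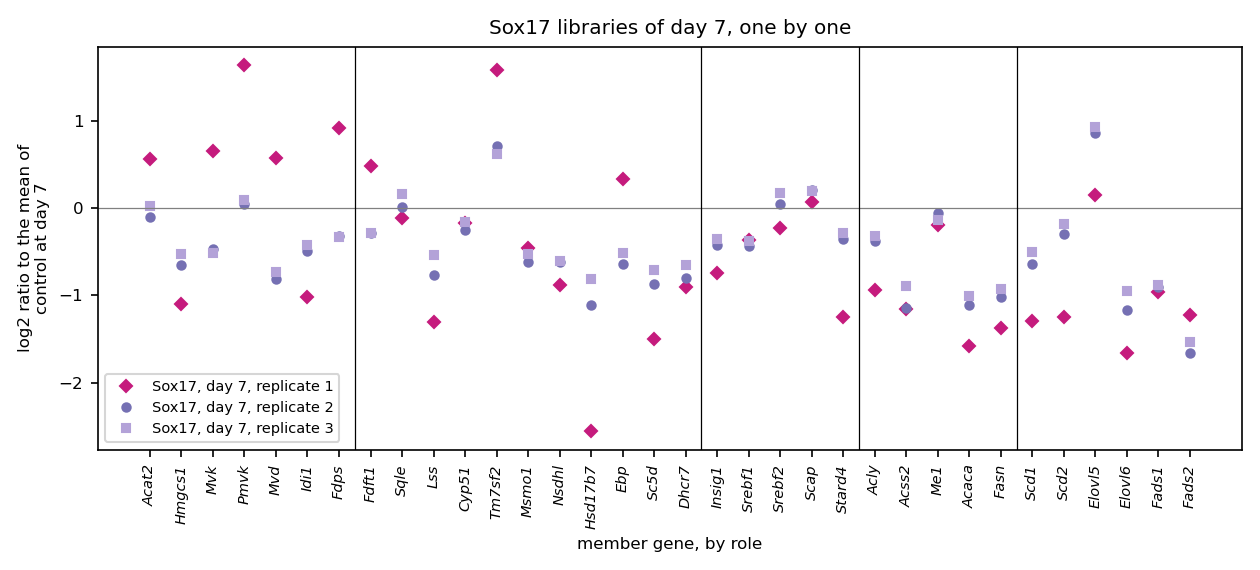
Log2 ratio of each Sox17 library at day 7 to the control mean of that day (y axis) for the 34 genes (x axis, grouped by role). Replicate 1 lies above replicates 2 and 3 for genes such as Pmvk, Mvd and Fdps, and below them for Scd2 and Hsd17b7.

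Other genes of the pathways are given by role, beside the share of all tested genes. With Erg at day 7 24.8% of all tested genes fell and 23.7% rose, with Sox17 25% and 29.5%, and with SEG 21.8% and 22.5%. Among 8 tested enzymes of sterol and isoprenoid synthesis outside the 34, 3 fell and 3 rose with Erg at day 7, 3 and 1 with Sox17, and 2 and 2 with SEG. Por, the reductase that feeds electrons to Cyp51 and Sqle, fell in all 6 comparisons, by 1.46 with Erg, 1.28 with Sox17 and 1.64 with SEG at day 7. Pdss1, of ubiquinone synthesis, fell with Erg at day 3 (−1.29) and rose with SEG at day 7 (0.61).

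Of 9 genes that process or degrade SREBP and its partners, 1 fell and 2 rose with Erg at day 7, 4 and 3 with Sox17, and 2 and 4 with SEG. Rnf145, a ubiquitin ligase of this system, rose with Erg at day 3 (0.48) and fell with Sox17 on both days (−1.02 and −0.96). Erlin2 rose with Sox17 (0.81) and SEG (0.99) at day 7, and Rnf139 fell with Sox17 at day 7 (−0.77). Of 8 sterol trafficking genes edgeR called none higher in the 6 comparisons, and 4 fell with Erg and 5 each with Sox17 and SEG at day 7. Lipa, the lysosomal lipase that frees cholesterol, fell with Sox17 by 1.16 at day 7, Npc1, which exports it, by 0.98, and Osbpl1a, an oxysterol-binding protein, by 0.74.

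Among 20 tested genes of fatty acid synthesis outside the 34, 10 fell and 2 rose with Erg at day 7, 6 and 7 with Sox17, and 8 and 5 with SEG. The Sox17 counts are 30% and 35% of the 20, near the shares of all genes. Elovl7, an elongase, was called higher with Erg and SEG on both days, at 0.276 ± 0.255 CPM in control, 1.58 ± 0.274 with Erg and 5.69 ± 0.667 with SEG at day 7. Fads6 fell in all 6 comparisons, by 2.30 with Erg at day 7. Thrsp, a regulator of lipid synthesis, was called once, with Sox17 at day 7, at 0.579 ± 0.0536 CPM against 0.0434 ± 0.0423. Of 6 other sources of NADPH, 2 fell and 1 rose with Erg at day 7, 3 and 1 with Sox17, and 4 and 1 with SEG. G6pdx, which opens the pentose phosphate pathway, fell in all 6, with −1.60 for SEG at day 7. Idh1 fell at day 7 with each factor (−0.96, −0.87 and −1.14 for Erg, Sox17 and SEG), and Me3 rose with Sox17 (1.02) and SEG (1.27).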

How the data were processed

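The authors deposited a table of whole-number counts per gene for 24 libraries and 35727 Ensembl genes, 35422 of them named and 305 unnamed. Salmon, DESeq2 and the build mm10 were used per the submitters' processing notes. The sources used here do not give versions, rounding of estimated counts, annotation or strand setting. Counts of genes that share sequence with a near copy or an overlapping gene are uncertain. Columns were matched to libraries by their labels.

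Genes with enough counts by filterByExpr (minimum count 10), 14804 of them, were scaled by TMM and fitted with 1 mean for each of 8 groups in edgeR 4.0.16 (quasi-likelihood, R 4.3.3, limma 3.58.1). In 19 comparisons, adjusted p under 0.05 by Benjamini-Hochberg over all tested genes, 2-sided, was a call. CPM is relative to the TMM-scaled library, log2 changes are those of the fit with a prior count of 0.125, and intervals are 95%. Levels per kilobase use exonic lengths from the GENCODE annotation on GRCm38, the build also of the gene coordinates. Promoter windows and sequences are from RefSeq on GRCm38.p6. Total counts ran from 18794422 to 44586227, and every one of the 34 genes had at least 10 counts in every library.

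The 34 genes, the other lists and the tests were chosen with earlier results of these data known. Values in every library are given for the SREBP genes, elongases, desaturases and, against control, the 4 called genes with the largest change, and for genes called in both directions. Other comparisons name the 3 largest rises and falls, and other lists up to 3 called genes. Some genes of these other lists are not reported here and are in none of their counts. Values shown for Pmvk, Fdps and Fdft1 in the Sox17 libraries at day 7, genes set apart there, and intervals of uncalled genes were picked after their values were seen.

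Alternatives were RLE scaling, no filter, fits of only the groups compared, leaving out each library, a replicate block and DESeq2 1.42.0. Leaving out both day 7 libraries that stood apart, and a block within Sox17 and SEG at day 7, were added after the data were seen. Deviations of same-numbered libraries correlated above 0.1 in every pair in SEG against Sox17 at day 7 (0.396 to 0.69) and in no other comparison, and the labels give no shared source, so the numbers were taken as pairs there alone. Deviations from a mean of 3 libraries depend on each other. Replicate 1, apart in both groups, can therefore raise all 3 correlations, which do not show that the libraries were paired. All pairs of libraries differed beyond sampling noise. Counts of 14804 genes were simulated, with 1 mean a gene over all groups apart from the made changes. The spread of a gene was set by its level alone, and no library stood apart, unlike in the real data. The test was run on the simulated counts. For Erg against control at day 7 it found 72 of 100 genes made to change 2-fold, 96 of 100 made to change 4-fold and 6 that were not changed, and for the interaction of Erg and day 43, 92 and 8. Tables and figures were made with pandas 2.3.3 and matplotlib 3.10.9 in Python 3.11.15.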

Additional observations from a re-analysis of the deposited data

Results flagged for a closer look

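Effects that differed between day 3 and day 7 were found by edgeR's quasi-likelihood test of the interaction of factor and day, with Benjamini-Hochberg adjustment over 14804 genes. The effect of Erg was lower at day 7 for 27 of 34 genes. The 3 with the largest change were Fads2 (−1.59), Insig1 (−1.45) and Scd1 (−1.36), on the log2 scale. Fads2 changed sign, from 0.70 at day 3 to −0.88 at day 7, with every Erg library above control at day 3 and below it at day 7. The effect of SEG was lower at day 7 for 20 genes, and Acss2 (−1.13), Tm7sf2 (−1.10) and Lss (−1.002) moved most. The effect of Sox17 was higher at day 7 for 1 gene, Me1 (0.30), and lower for 2, Acss2 (−0.46) and Msmo1 (−0.34). No group held 4 or more libraries, so single libraries were not tested as outliers.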

How the results depend on the processing

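2 alternatives were chosen after seeing the data: leaving out both day 7 libraries that stood apart, and a block by replicate in the Sox17 and SEG libraries of day 7. No scaling moved the median of all genes by over 0.1. The counts that moved by over 1.5 times are these. In fits of only the groups compared, higher genes were 4 for Sox17 against control at day 3, 1 at day 7, 0 for SEG against Sox17 at day 7, 0 for day 7 against day 3 in Sox17 and in SEG, 0 for the change of the Sox17 effect and 1 for that of the SEG effect. Lower genes in such fits were 8 for SEG against Erg at day 3, beside 4896 of 13551 tested genes. For SEG against Sox17 they were 13 at day 3 (3317 of 13451) and 10 at day 7 (1160 of 13709). In Sox17, 13 were lower at day 7 than at day 3 (259 of 13857). The change of the Sox17 effect gave 0 lower (561 of 14021). With no filter, 0 genes were higher for SEG against Sox17 at day 7 and for day 7 against day 3 in control, Sox17 and SEG, and 0 lower for the change of the Sox17 effect. RLE scaling and DESeq2 each gave 1 gene with a higher SEG effect. Without both libraries that stood apart, 4 genes were higher for Sox17 against control at day 3, 7 lower for SEG against Erg and 13 lower for SEG against Sox17 at day 3, 3 higher and 6 lower for the change of the Sox17 effect, and 2 higher for that of the SEG effect. With the replicate block over all groups, 0 genes were higher for SEG at day 7 against day 3, and it moved no other count of calls by over 1.5 times. Within Sox17 and SEG at day 7, where same-numbered libraries deviate together, the replicate block gave 0 genes higher and 18 lower. Of 13709 tested genes it gave 1905 higher and 1976 lower. Fdps and Fdft1, both uncalled with Sox17 at day 7, turned to −0.32 and −0.29 without replicate 1 of Sox17 (ranges over single libraries −0.32 to 0.48 and −0.29 to 0.20), and to −0.29 and −0.25 without both libraries.

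Leaving out 1 library at a time, lower genes against control ranged from 24 to 30 with Erg, 16 to 24 with Sox17 and 19 to 27 with SEG at day 3, and from 31 to 32, 18 to 24 and 29 to 31 at day 7. Higher genes ranged from 3 to 3, 2 to 4 and 2 to 2 at day 3, and from 1 to 1, 2 to 5 and 2 to 2 at day 7. SEG against Erg gave 9 to 16 higher and 3 to 7 lower at day 3, and 18 to 24 and 2 to 3 at day 7. SEG against Sox17 gave 4 to 9 higher and 5 to 11 lower at day 3, and 1 to 3 and 20 to 27 at day 7. Sox17 against Erg gave 11 to 19 higher and 6 to 6 lower at day 3, and 28 to 30 and 2 to 2 at day 7. Day 7 against day 3 gave 24 to 33 lower in control, 31 to 34 with Erg, 25 to 32 with Sox17 and 31 to 32 with SEG, and 0 to 1 higher, or 0 to 0 with Erg. The change of effect gave 26 to 30 lower for Erg (0 to 0 higher), 0 to 4 for Sox17 (1 to 3 higher) and 15 to 27 for SEG (0 to 2 higher). Replicate 1 of Sox17 at day 7 moved 6 of these counts by over 1.5 times. Without it, 4 genes were higher for Sox17 at day 3, 7 lower for SEG against Erg and 11 lower for SEG against Sox17 at day 3, 3 higher and 4 lower for the change of the Sox17 effect, and 2 higher for that of the SEG effect. Without replicate 3 of control at day 7, 2 genes were higher with Sox17 at day 7 and 4 lower for the change of its effect, as without replicate 3 of Sox17 at day 7. Without replicate 3 of Sox17 or of SEG at day 3, 4 were higher for SEG against Sox17 at day 3. Other counts that moved were of 3 genes or fewer. With 3 libraries a group, changes whose intervals span 0 were not detectable at this size.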

Other observations

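Genes that use or export lipid, outside the synthesis pathways, moved gene by gene. Of all tested genes, 23.7% rose and 24.8% fell with Erg at day 7, 29.5% and 25% with Sox17, and 22.5% and 21.8% with SEG. Of 8 genes of LXR, the nuclear receptor of oxysterols, and its targets, 1 rose and 4 fell with Erg at day 7 in edgeR's quasi-likelihood test with Benjamini-Hochberg adjustment, 2 rose and 5 fell with Sox17, and 1 rose and 3 fell with SEG. Abca1 and Abcg1, both cholesterol exporters and textbook LXR targets, went apart at day 3. Abca1 averaged 28.1 ± 1.5 CPM (SD, n = 3) in control at day 3, 30.4 ± 4.16 with Erg, 189 ± 45.3 with Sox17 and 182 ± 30.2 with SEG. It rose with Sox17 (2.75) and SEG (2.70) at day 3 and was not called with Erg (0.12). At day 7 Abca1 stood at 47.3, 45.5 and 41.8 CPM in control and at 68.8, 87.5 and 57.8 with Erg. It stood at 39.2, 172 and 194 with Sox17 and at 57.3, 127 and 142 with SEG. Every Erg library was thus above control at day 7, though the 1 called rise there was Abcg1. Replicate 1 of Sox17 lay below control. At day 3 Abcg1 averaged 12.9 ± 1.55 CPM in control, 65.3 ± 1.22 with Erg, 1.19 ± 0.226 with Sox17 and 5.56 ± 0.457 with SEG. It rose with Erg on both days (2.34 and 2.25) and fell with Sox17 (−3.43 and −3.08) and SEG (−1.22 and −1.06). Mlxipl, which encodes the carbohydrate-responsive factor ChREBP, averaged 2.17 ± 0.144 CPM in control at day 7 and under 0.1 CPM with each factor.

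Of 9 genes of glycerolipid synthesis, 1 rose and 2 fell with Erg at day 7, 3 and 3 with Sox17, and 4 and 3 with SEG. Gpam, the first acyltransferase of that pathway and an SREBP target, fell in all 6 comparisons with control, by 1.75 with Erg, 1.80 with Sox17 and 1.89 with SEG at day 7. Lpin3, a phosphatidate phosphatase, fell with Sox17 (−1.83 at day 3) and rose with SEG (1.24). Dgat2 rose with Erg at day 3 (0.81) and fell with SEG at day 7 (−1.04). Of 14 genes of fatty acid oxidation, 2 rose and 3 fell with Erg at day 7, 5 and 4 with Sox17, and 0 and 6 with SEG. Beside both lists, 23.7% of all tested genes rose and 24.8% fell with Erg. The shares were 29.5% and 25% with Sox17, and 22.5% and 21.8% with SEG. Acadl rose with Sox17 at day 3 (1.18) and day 7 (1.30), Acadvl rose with Erg at day 7 (1.09), and Acaa2 fell with SEG at day 7 (−1.27).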
